A study of Mus musculus with 6 samples.

Results

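Interval-named probes spanning 10 to 50 kb were examined on 6 one-colour Agilent arrays of mouse abdominal adipose tissue. These are the non-control probes whose name on the array is a chromosome, a start, an end and a strand, with 10000 to 49999 bases between start and end. There were 15175 of them among 150305 non-control probes, and among 37852 interval-named probes of any span. Of the 15175, 12614 (83.1%) passed the scanner software's test of signal over background (well above background) on 3 or more of the 6 arrays and were tested, out of 99431 tested probes in all. All 6 samples came from C57BL/6 mice put on a high-fat diet at 6 weeks of age and operated on after 12 weeks of it. The DJB group (3 arrays) had a duodenal-jejunal bypass, which carries food past the duodenum and upper jejunum, with a biliopancreatic limb of 5 cm and a Roux limb of 4 cm. The Sham group (3 arrays) had a sham operation. The labels give no fat depot, no time after surgery and no statement that the 3 samples of a group are separate animals, so the p-values rest on a spread between samples that may be technical.

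A name of this kind is used in catalogues of circular RNAs. In back-splicing, the end of a downstream exon is joined to the beginning of an upstream exon, which closes the RNA into a ring without free ends. Circular RNAs lack a poly(A) tail, tend to be long-lived, and often come from a minority of the transcripts of a protein-coding host gene. A single host gene can give many circles that differ in the exons at their ends. The labels and files do not state what these intervals stand for, and no exonuclease treatment of the RNA is named in the labels' protocols.

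The probe sequences showed how these intervals were read. Each probe had 60 bases, and where another interval-named probe shared its downstream end, the pair held the same run of bases, with which at least 1 of them began, and then parted. Where another shared its upstream end, a later stretch was the same, of 46 bases at the median over tested pairs. The probes thus read from the downstream end of the interval into its upstream end, the reverse of the genomic order and the order of a back-splice junction. Of 15175 members, 9507 shared an upstream end and 9045 a downstream end with another interval-named probe. In 5805 members with partners at both ends, the meeting point found from each side differed by 3 bases or fewer in 96.8%. Before the point of parting from a partner with the same downstream end, a probe had 9 bases at the fewest and 11 at the median, and it had exactly 9 in 3522 members (38.9%) and 25 or more in 27.0%. In a probe with 9, the other 51 of its 60 bases lay on the side of the upstream end. How much of a probe's signal came from RNA without the junction was not tested.

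Pairs from Atp6v1h, Clmn and Mamdc2 show probes that share the upstream end and almost all their bases, and pairs from Atp6v1h and Kif21a show probes that share only a short run before they part. Sequences are as deposited on the array, 5′ to 3′, and capitals mark the run shared with the partner listed next to it.
Atp6v1h chr1:5089009-5101123: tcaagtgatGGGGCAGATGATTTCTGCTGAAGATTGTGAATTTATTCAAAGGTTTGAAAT
Atp6v1h chr1:5089009-5117487: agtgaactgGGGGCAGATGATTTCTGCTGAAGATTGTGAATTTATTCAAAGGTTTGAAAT
Clmn chr12:104789982-104800572: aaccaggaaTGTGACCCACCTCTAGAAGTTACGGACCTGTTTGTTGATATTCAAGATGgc
Clmn chr12:104783907-104800572: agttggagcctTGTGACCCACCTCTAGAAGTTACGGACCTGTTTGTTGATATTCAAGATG
Mamdc2 chr19:23359150-23374055: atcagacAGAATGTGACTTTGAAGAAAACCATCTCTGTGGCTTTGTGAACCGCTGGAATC
Mamdc2 chr19:23350599-23374055: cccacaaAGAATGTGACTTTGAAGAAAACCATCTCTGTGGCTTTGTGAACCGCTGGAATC
Atp6v1h chr1:5117390-5150061: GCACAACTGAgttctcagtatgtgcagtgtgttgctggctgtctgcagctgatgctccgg
Atp6v1h chr1:5133084-5150061: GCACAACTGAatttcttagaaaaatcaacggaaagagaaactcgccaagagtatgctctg
Kif21a chr15:90980795-90993868: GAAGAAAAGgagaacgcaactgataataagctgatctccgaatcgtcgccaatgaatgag
Kif21a chr15:90980795-90994475: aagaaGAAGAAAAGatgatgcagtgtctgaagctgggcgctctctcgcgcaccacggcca
The next 8 probes are shown because the results below turn on them as single intervals. Capitals mark the run shared with another interval-named probe of the same upstream end, and a probe without capitals had no such partner with a shared run of at least 12 bases.
Trdn chr10:33139074-33158278: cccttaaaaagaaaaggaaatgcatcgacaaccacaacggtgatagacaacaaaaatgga
Clic5 chr17:44237133-44248826: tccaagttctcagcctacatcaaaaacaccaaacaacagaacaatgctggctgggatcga
Rgs6 chr12:83047559-83067487: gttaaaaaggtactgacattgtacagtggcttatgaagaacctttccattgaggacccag
Nf2 chr11:4780578-4794917: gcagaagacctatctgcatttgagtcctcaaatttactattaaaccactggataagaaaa
Lrp1b chr2:40902977-40928022: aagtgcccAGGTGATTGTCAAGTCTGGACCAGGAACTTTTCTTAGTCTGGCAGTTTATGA
Tdp1 chr12:99935005-99945348: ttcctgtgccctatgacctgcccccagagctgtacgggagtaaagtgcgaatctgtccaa
Egfem1 chr3:29125124-29153601: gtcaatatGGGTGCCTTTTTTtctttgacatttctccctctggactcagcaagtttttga
Pnpla3 chr15:84172716-84186081: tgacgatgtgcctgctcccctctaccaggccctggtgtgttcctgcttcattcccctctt

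Coordinates are those in the probe names. Their build is not stated; 98.2% of all interval-named probes fell within a GRCm38.p6 gene, a share that dropped to 43.4% and 42.1% when every interval was shifted by 500000 and -500000 bases, and they were read as GRCm38. Of the 15175 members, 14667 (96.7%) lay within a single gene on their own strand, called the host gene here, and these fell into 3794 host genes. A further 278 were not wholly inside any gene of the table, though they may overlap one. Another 10 lay in 2 genes of the same strand, 61 in a gene of the opposite strand only, and 159 had no host by these rules for another reason. Host genes with 1 member numbered 1381, 328 had 10 or more, and the most was 51. Exon and UTR positions were not analysed here. The members nearest the lower span limit were an interval of Csad, inside it, with a span of 10001 bases and a difference of -0.42, and an interval of Mef2c, outside it, with 9999 bases and -0.20. Nearest the upper limit were an interval of Gphn, inside, with 49994 bases and -0.048, and an interval of Vta1, outside, with 50001 bases and 0.22.

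Values are log2 processed signal less the 75th percentile of the same array, so 0 is the level of that percentile and negative values are common. They compare arrays for 1 probe and do not rank probes or genes against each other. The share of members well above background was 85.1%, 81.6% and 84.2% on Sham-1, Sham-2 and Sham-3 and 81.8%, 81.3% and 80.5% on DJB-1, DJB-2 and DJB-3. Where 3 values are given for a group below, they stand in the order of these array numbers. In all, 11717 members passed on all 6 arrays and 1807 on none. The processed signal at the 75th percentile was 176 to 184 in Sham and 132 to 165 in DJB, and these ranges did not overlap. Arrays Sham-1, Sham-3, DJB-1 and DJB-2 were on 1 slide and Sham-2 and DJB-3 on the other. Sham-3 correlated more closely with DJB-3 (r = 0.980 over probes) than with Sham-1 (r = 0.973). Markers of adipocytes were well above background on all arrays, at a mean log2 level over 6 markers of 7.98 to 8.28 in Sham and 6.43 to 7.49 in DJB, with 2 of 6 lower (Lep and Pparg). In bulk tissue, fewer cells of a type and less RNA per cell cannot be told apart.

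As a class, the 10 to 50 kb intervals sat slightly higher in DJB. The median over tested members was -1.47, -1.43 and -1.41 on Sham-1, Sham-2 and Sham-3 and -1.33, -1.35 and -1.31 on DJB-1, DJB-2 and DJB-3. All 3 DJB medians were above all 3 Sham medians, the most that 3 against 3 arrays can show (an exact permutation test cannot go below p = 0.10). The median difference of a member was 0.14, against 0.080 over all tested probes and 0.033 over 39525 mRNA-named probes. It was 0.15 on the 4 arrays of slide 1 and 0.13 on the 2 arrays of slide 2. The class medians of the mRNA-named probes went the other way on the arrays, although the median of their differences was above 0, at 1.28, 1.28 and 1.25 on the Sham and 1.14, 1.15 and 1.20 on the DJB arrays. The median difference was smaller for longer intervals. It was 0.19 for 3085 tested intervals under 1 kb, 0.17 for 13009 of 1 to 10 kb, 0.14 for the 10 to 50 kb class and 0.073 for 3244 of 50 kb or more. Within the class it was 0.15, 0.13, 0.11 and 0.10 for spans of 10 to 20, 20 to 30, 30 to 40 and 40 to 50 kb. The share of members that could be tested fell over the same bins, from 86.0% to 82.2%, 79.0% and 76.8%. Median scaling of the arrays in place of the 75th percentile moved the median of all tested probes from 0.080 to 0.19 and that of the members to 0.25.

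**Figure D1:**
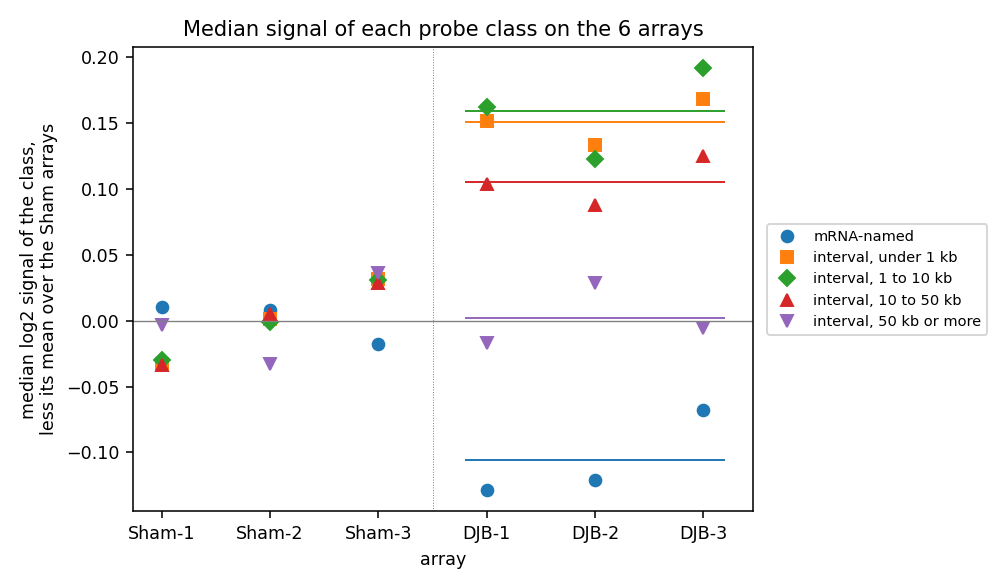
Median log2 signal of each probe class on each array, less that class's mean over the Sham arrays; horizontal lines are means over the DJB arrays. The 10 to 50 kb intervals (red triangles) lay above every Sham array on all 3 DJB arrays, and mRNA-named probes lay below.

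Single intervals changed in both directions. With limma, adjusted for all 99431 tested probes, 328 members were higher in DJB at an adjusted p under 0.05 (2.60% of 12614, against 1.84% of all tested probes) and 135 were lower (1.07%, against 3.15%). These are the called members below. They came from 163 and 87 host genes, and 0 host genes had called members in both directions. Of the calls on members, 70.8% were rises, against 36.8% of the calls over all probes. Rises also outnumbered falls among tested intervals of 1 to 10 kb (3.17% and 0.861%) and under 1 kb (3.21% and 1.26%). At 50 kb or more, rises were fewer than falls (1.45% and 1.66%). That split moved with the processing. Rises made up 83.0% of member calls with median scaling, 81.0% with quantile normalization and 80.7% on the authors' deposited log2 values. With normexp background correction they made up 88.9%. Over all probes the share rose too, to 48.5%, 43.4%, 42.6% and 58.8% in that order. Among members it was 75.3% for probes measured on all 6 arrays and 76.1% with a trended robust prior. It fell to 44% with slide as a block and 36% with no detection filter, so falls were then more frequent. Leaving out Sham-3, DJB-1 or DJB-3 gave 45.4%, 44.7% and 30.9%. Leaving out Sham-1, Sham-2 or DJB-2 left few calls, counted below. The 3 DJB values all lay above the 3 Sham values in 3619 members (28.7%, against 21.9% of all probes) and all below in 1167 (9.25%, against 14.2%). Called falls were larger than called rises. The median called rise was 0.76 and the largest 1.85, and 33 of 328 reached 2-fold. The median called fall was -1.22, and 81 of 135 reached 2-fold. In 17 of the 135, no DJB array was well above background, so that only a bound can be given. The p-values of these 17 rest partly on unmeasured signal. With these at their bound, the median called fall was -1.10 and 74 reached 2-fold. The quartiles of all tested members were -0.077 and 0.32, and the median within-group SD of a member was 0.18.

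The calls were sensitive to single arrays. Without Sham-1, 0 members were called higher and 1 lower, with 1525 and 593 at an unadjusted p under 0.05. Leaving out Sham-2 instead gave 1 and 4, Sham-3 59 and 71, DJB-1 17 and 21, DJB-2 4 and 4, and DJB-3 114 and 255. With the slide as a block they were 11 and 14, and 23 of the 463 called members stayed called. Only the interval of Trdn stayed called with each of the 6 arrays left out in turn. It was well above background on 0 DJB arrays, so these calls rest partly on unmeasured values. The 463 called members had groups that did not overlap, as did many members that were not called.

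**Figure D2:**
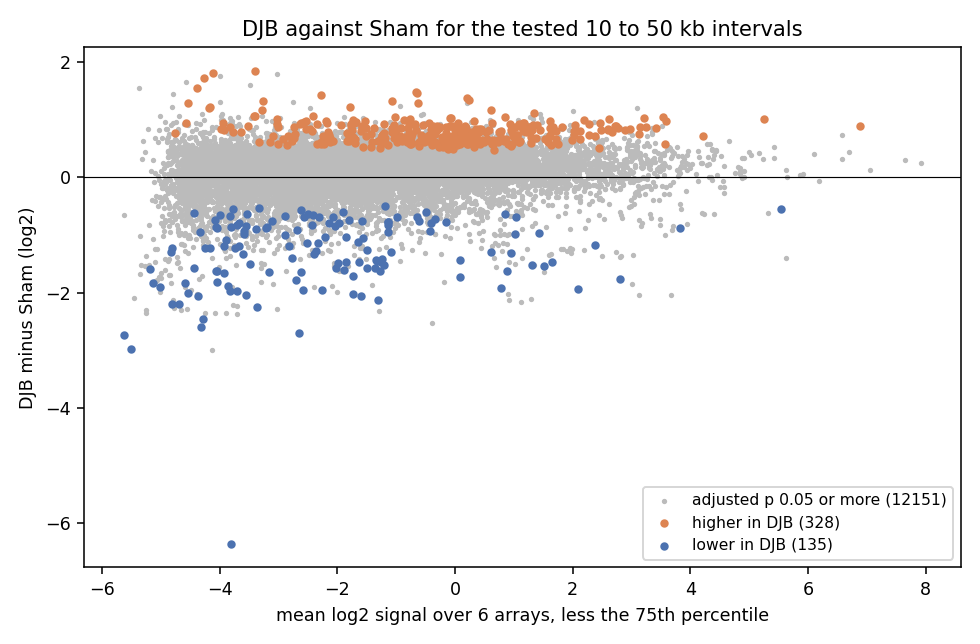
DJB minus Sham difference (log2) of each tested member against its mean log2 signal over the 6 arrays. The 328 called rises (orange) form a band no higher than 1.85 and the 135 called falls (blue) spread further, down to the Trdn interval at -6.35.

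The largest change belonged to an interval of Trdn (triadin, a protein of the calcium-release complex in striated muscle) at chr10:33139074-33158278 on the plus strand. Its values were -0.50, -0.79 and -0.61 in Sham and -7.03, -6.97 and -6.97 in DJB. No DJB array was well above background there, while all 3 Sham arrays were, so the fall was at least 17.5-fold. The fitted difference was -6.35 ± 0.12 (SE; adjusted p = 0.000139). It was also called with slide as a block (adjusted p = 0.00216). The DJB values lay below the lowest well-measured signal of their arrays (-4.84, -4.72 and -4.73), and the probe passed the detection filter through Sham alone. The SE and both p-values thus rest partly on the spread of unmeasured values. The Trdn mRNA probe, well above background on 3 Sham arrays and 1 DJB array, fell by 6.43 (SE 0.64; adjusted p = 0.016). The difference of the interval from its mRNA was 0.076 ± 0.59 (SE; adjusted p = 0.957) and did not pass the test. An interval of Myom1 (myomesin, of the muscle M-band) fell at least 1.67-fold. The Myom1 mRNA probe, well above background on 3 Sham and 3 DJB arrays, was not called, at -0.37 ± 0.20 (SE; adjusted p = 0.280). The interval less its mRNA differed by -2.60 ± 0.46 (SE; adjusted p = 0.0591) and did not pass the test. Of 5 markers of skeletal muscle, 4 were lower, with a mean log2 level of 1.002 to 1.38 on the Sham and -1.38 to -0.94 on the DJB arrays. Their part in these falls was not tested.

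Other large falls were in genes of several functions. The host mRNA probes of Clic5, Igfbp2, Clmn and Tenm4 differed by -1.90, -3.56, -2.47 and -2.13, all called lower. Those of Pex5l and Trhde differed by -3.14 and -4.15, with that of Trhde well above background on 0 DJB arrays. The Pak3 mRNA probe differed by -0.40 and was not called. In Clic5 (a chloride intracellular channel family protein) the interval at chr17:44237133-44248826 on the plus strand read -2.05, -2.36 and -2.34 in Sham and -4.74, -4.49 and -4.24 in DJB. All 3 DJB values were lower than every Sham value and all were well above background, a difference of -2.24 ± 0.17 (SE; adjusted p = 0.0084). The interval of Igfbp2 (an insulin-like growth factor binding protein) at chr1:72824685-72849271 on the plus strand read -0.51, -1.12 and -2.31 in Sham and -3.99, -4.35 and -3.68 in DJB. Sham-3 was the lowest Sham array and still above every DJB array, and the difference was -2.70 ± 0.46 (SE; adjusted p = 0.0379). In Clmn (calmin, an actin-binding protein), the interval at chr12:104789982-104800572 read 0.38, -0.24 and -0.88 in Sham and -3.05, -1.99 and -2.07 in DJB, a difference of -2.12 ± 0.41 (SE; adjusted p = 0.0456). The Clmn interval chr12:104783907-104800572, which shares 49 bases with it in the sequences above, changed by -2.06. Intervals of Tenm4 (teneurin), Pak3 (a p21-activated kinase) and Pex5l fell at least 3.35-fold, 2.24-fold and 2.08-fold, with no DJB array well above background. An interval of Trhde (the thyrotropin-releasing hormone degrading enzyme) differed by -2.46 ± 0.39 (SE; adjusted p = 0.0337). The Trhde interval was well above background on 1 DJB array, so this size is not exact.

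Several of the largest rises were in probes that were not well above background on every Sham array. The interval of Prtg (protogenin, an immunoglobulin superfamily protein) read -4.19, -4.69 and -4.10 in Sham and -2.05, -2.86 and -2.54 in DJB, a difference of 1.85 ± 0.26 (SE; adjusted p = 0.0283), and was well above background on 2 of 3 Sham arrays. Intervals of Gsr (glutathione reductase), Slc37a1 (a sugar-phosphate transporter family member), Nt5dc1 and Parpbp differed by 1.81, 1.72, 1.55 and 1.29, and each was well above background on 1 Sham array and 3 DJB arrays. The better-measured rises were in Mamdc2, Lrp1b and Ankrd33b. The Mamdc2 interval chr19:23359150-23374055 read -1.51, -1.31 and -1.41 in Sham and 0.31, -0.17 and 0.091 in DJB, with every DJB array above every Sham array, and the difference was 1.49 ± 0.15 (SE; adjusted p = 0.0176). Mamdc2 encodes a secreted protein with MAM domains. The interval of Lrp1b (a low-density lipoprotein receptor family member) at chr2:40902977-40928022 on the minus strand read -3.02, -3.33 and -2.65 in Sham and -1.43, -1.38 and -1.90 in DJB, a difference of 1.43 ± 0.23 (SE; adjusted p = 0.0343). The Ankrd33b interval (an ankyrin repeat protein) read -1.90, -1.51 and -1.80 in Sham and -0.46, -0.46 and -0.32 in DJB, a difference of 1.32 ± 0.14 (SE; adjusted p = 0.0177); the DJB values lay close together and above every Sham value. With slide as a block, the adjusted p of these 3 was 0.0436, 0.0367 and 0.0286.

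**Figure D3:**
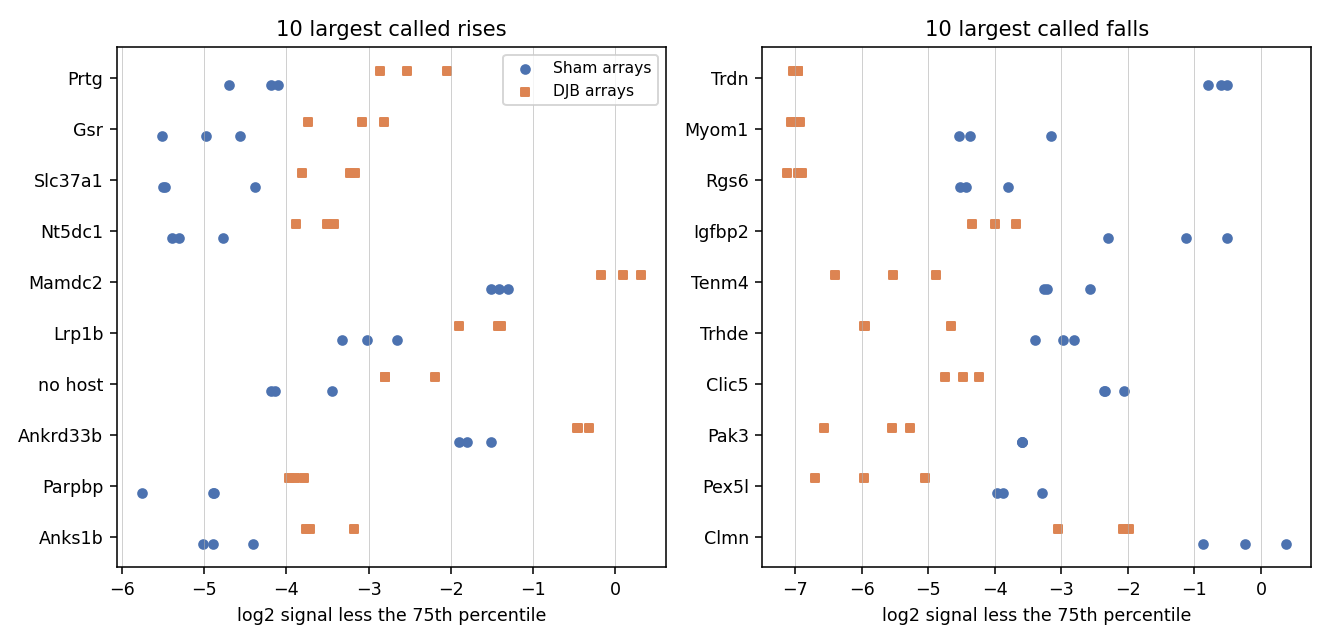
Log2 signal on each array for the called members with the 10 largest rises (left) and the 10 largest falls (right), 1 interval per host gene. In all 20 the Sham arrays (blue circles) and DJB arrays (orange squares) do not overlap. The interval marked "no host" has no host gene by the rules used here.

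Among the members with the highest signals, an interval of Tdp1 (tyrosyl-DNA phosphodiesterase) was the 1 of 8 that was called. At chr12:99935005-99945348 on the plus strand it read 6.22, 6.51 and 6.57 in Sham and 7.53, 7.21 and 7.24 in DJB, a difference of 0.90 ± 0.15 (SE; adjusted p = 0.0379). Its host mRNA probe moved by 0.092 ± 0.12 (SE; adjusted p = 0.655), and the interval rose relative to it by 0.81 ± 0.11 (SE; adjusted p = 0.0319). Intervals of Uap1 (0.25), Trpm4 (0.30), Cd36 (0.44), Fn1 (0.73) and Anxa2 (0.31) had all DJB values above all Sham values without passing the test. Cd36 is a fatty acid uptake receptor. Its interval read 6.34, 6.46 and 6.62 in Sham and 6.89, 6.85 and 7.002 in DJB, with an adjusted p of 0.0833. The other 2 were an interval of Dab1 (0.13) and one without a host gene (-0.068), and their groups overlapped.

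Intervals of the same host gene often moved together. Of 1129 host genes with at least 4 tested members, 423 had all members above 0 and 125 all below. Members of a host gene share ends and often probe bases, so they are not independent, and the host genes named by their number of calls were chosen after their values were seen. Atp6v1h, which encodes the H subunit of the vacuolar proton pump, had 18 of 19 tested members called higher. The gene lies at chr1:5082978-5163213, and its tested members have 6 distinct upstream ends and 9 distinct downstream ends. They differed by 0.81 to 0.92. Their median was 0.67, 0.75 and 0.72 in Sham and 1.68, 1.47 and 1.63 in DJB, which do not overlap. The pair chr1:5089009-5101123 and chr1:5089009-5117487, which share 51 of 60 bases, differed by 0.85 and 0.85 between the groups. The pair chr1:5117390-5150061 and chr1:5133084-5150061, which share 10 bases, both differed by 0.90. The Atp6v1h mRNA probe differed by 0.64 ± 0.14 (SE; adjusted p = 0.0573).

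Stxbp5 (tomosyn, a syntaxin-binding protein) had 23 of 30 tested members called higher, with differences from 0.46 to 0.76. Their median was -0.48, -0.29 and -0.32 in Sham and 0.27, 0.31 and 0.22 in DJB, and each DJB array was above each Sham array. Nsf, the ATPase that takes apart SNARE complexes after membrane fusion, had 13 of 15 called higher (median difference 0.85). Snx27, an endosomal sorting nexin, had 11 of 13 (median 0.67), and its other 2 members were at -0.019 and 0.097. All 5 tested members of Mamdc2 were called higher (range 1.28 to 1.49), as were all 5 of Gdpd1, a lysophospholipase D (range 0.77 to 0.88), and all 4 each of Ostf1 and Scpep1. Mgat5, a Golgi glycosyltransferase, and Slc41a2, a magnesium transporter, had 7 of 9 and 7 of 13 called higher. Sptlc2, a subunit of serine palmitoyltransferase, had 5 of 6 (median 0.74), and Agfg1 5 of 14. With slide as a block, 1 interval each of Atp6v1h, Nsf, Mamdc2 and Sptlc2 stayed called, and 0 of Stxbp5, Snx27 and Gdpd1. The host mRNA probes of Stxbp5 and Mamdc2 were called higher, at 0.88 and 1.13. Those of Nsf, Snx27 and Gdpd1 differed by 0.73, 0.46 and 0.70 and were not called.

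Among the host genes with several called falls, Utrn (utrophin) had 39 tested members, the median of which was 0.011, -0.25 and -0.058 in Sham and -1.04, -0.86 and -0.45 in DJB; 6 were called lower and 38 were below 0. Nbea had 5 of 14 called lower, Sorbs2 4 of 11, and Lpgat1 (a lysophosphatidylglycerol acyltransferase) 3 of 5. All 5 members of Npr3, the natriuretic peptide clearance receptor, differed by -2.31 to -2.03, with the lowest median of any host gene with at least 4 tested members. By limma 0 of the 5 were called, and 5 were lower at an unadjusted p under 0.05. Their median was 2.09, 1.90 and 1.97 in Sham and -1.46, -0.053 and 1.22 in DJB, with the 3 DJB arrays far apart. In Kif21a (a kinesin), the intervals chr15:90980795-90993868 and chr15:90980795-90994475 share a downstream end and 9 bases. The first read -2.55, -2.76 and -2.72 in Sham and -5.86, -5.21 and -3.59 in DJB, and the second read 0.70, 0.58 and 0.85 in Sham and 0.82, 1.05 and 0.65 in DJB. The first was well above background on 1 DJB array. Neither was called on its own.

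In Dmd, the dystrophin gene, members that shared a downstream end had unlike values, a gap that was not itself tested. Of 13 tested members, 5 were called lower and 0 higher. The interval chrX:85177704-85197535 read -1.71, -1.61 and -1.84 in Sham and -3.11, -3.22 and -2.67 in DJB, a difference of -1.27 ± 0.17 (SE; adjusted p = 0.0276). The interval chrX:85149130-85197535, which ends at the same base but starts upstream, read 1.38, 1.18 and 1.38 in Sham and 1.46, 1.37 and 1.31 in DJB, a difference of 0.065 ± 0.12 (SE; adjusted p = 0.744), and its groups overlapped. Of the pair that ends at the other downstream end, chrX:85177704-85190702 differed by -1.13 ± 0.20 (SE; adjusted p = 0.0406) and chrX:85149130-85190702 by 0.018 ± 0.14 (SE; adjusted p = 0.945). So the 2 intervals with the upstream end at 85177704 fell and the 2 with the upstream end at 85149130 did not pass the test, whichever downstream end they had. Tested pairs with the same upstream end shared 46 bases at the median, so the 2 intervals of each upstream end may largely repeat each other. The Dmd mRNA probe differed by -1.27 ± 0.11 (SE; adjusted p = 0.0114). Relative to it, chrX:85149130-85197535 was higher by 1.34 ± 0.12 (SE; adjusted p = 0.0156) and chrX:85149130-85190702 by 1.29 ± 0.15 (SE; adjusted p = 0.0271).

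The other host genes with the most tested members had 0 calls, in either direction, by limma. Ptk2 (focal adhesion kinase) had 47, Ttll5 39, Asap1 35 and Dlg1 35, with median differences of -0.00022, 0.041, 0.091 and 0.031. At an unadjusted p under 0.05, Ptk2 had 0 higher and 1 lower, Ttll5 and Asap1 1 higher and 0 lower each, and Dlg1 0 of either. Dlg1 (a membrane scaffold protein) was the tightest of them, with differences from -0.12 to 0.19. Over pairs of tested members, the difference in response was smallest where the probes shared most bases. The median gap was 0.076 for 2332 pairs that share an upstream end and 50 or more bases, 0.10 for 1874 pairs with 30 to 49 bases and 0.14 for 1389 pairs with under 30. It was 0.13 for 4030 pairs that share a downstream end, with 10 bases at the median, and 0.14 for 34285 pairs of a host gene that share no end.

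**Figure D4:**
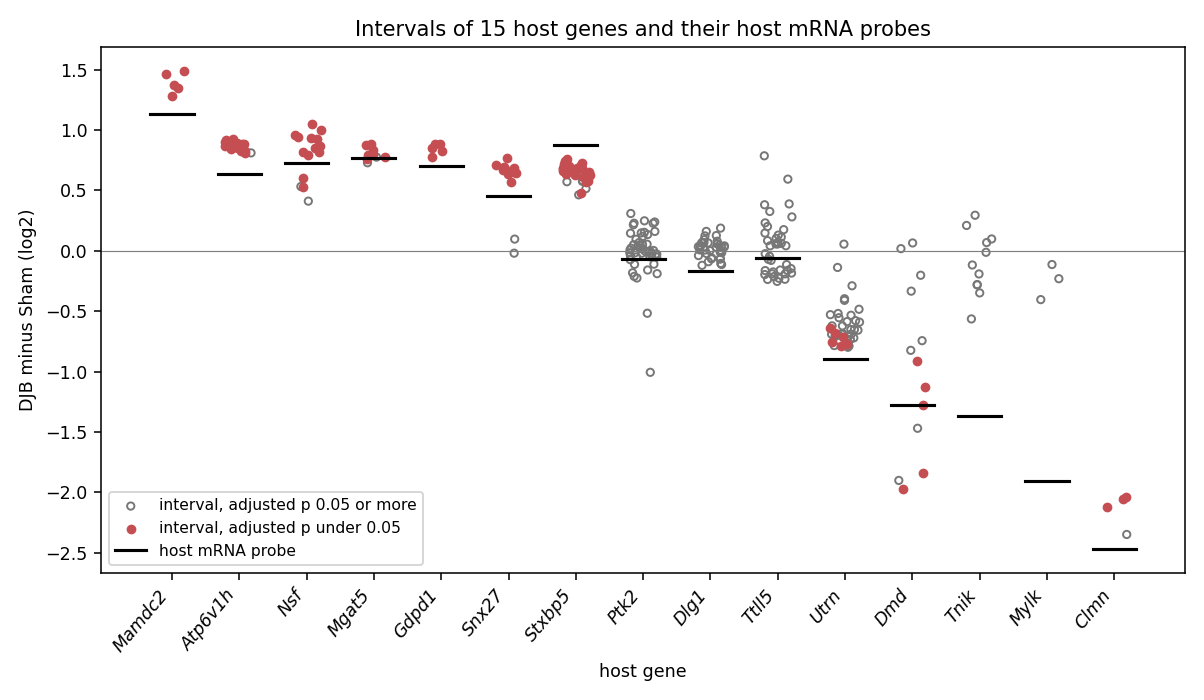
DJB minus Sham difference (log2) of every tested interval of 15 host genes (circles; filled where the adjusted p was under 0.05) and of the host mRNA probe (black line). Intervals of Atp6v1h, Mamdc2 and Stxbp5 lie close together, and those of Dmd spread from called falls to values above 0.

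Interval and host mRNA were then set against each other, as the change between the groups in the value of the interval probe less that of the host mRNA probe on the same array. This is a ratio within an array and shows unequal change, not which side changed. It could be tested for 11980 members in 3302 host genes. These included 320 called rises, with a median difference of 0.75 beside 0.60 for their host mRNA probes. Of the 320, 11 also rose relative to the host by this test. They also included 132 called falls, with a median of -1.22 beside -1.17 for the host probes. Of the 132, 5 also fell relative to the host. Relative to the host mRNA, 110 members rose (0.918%, against 0.856% of all 29681 interval-named probes so tested) and 7 fell (0.0584%, against 0.0606%), so the share was close to that of intervals of any span. The 110 came from 73 host genes. In these the median interval difference was 0.14 and the median host difference -1.37; 78 had a host mRNA probe called lower, and 11 had an interval called higher. The counts depended on the host probe: with the mean of all mRNA probes of the host gene in place of the brightest one, 26 rose and 2 fell. Leaving out Sham-1 gave 3 and 1, Sham-2 20 and 4, Sham-3 135 and 8, DJB-1 36 and 4, DJB-2 5 and 2, and DJB-3 273 and 29. With slide as a block, 67 rose and 6 fell.

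Among the host genes with the 6 largest fitted rises of this kind was Egfem1 (an EGF-like domain protein). Its interval at chr3:29125124-29153601 on the plus strand read -1.49, -1.67 and -1.23 in Sham and -0.63, -0.49 and -1.35 in DJB, and the mRNA probe read -3.65, -2.81 and -3.12 in Sham and -5.76, -5.79 and -6.77 in DJB. The interval groups overlapped. The mRNA probe differed by -2.91 ± 0.35 (SE; adjusted p = 0.0225) but was well above background on 3 Sham and 0 DJB arrays, and the relative difference was 3.55 ± 0.26 (SE; adjusted p = 0.0078). For 7 of the 110 members, Egfem1 and Npas3 among them, the mRNA probe was well above background on 0 DJB arrays. Neither the size nor the p-value of their relative difference is exact. The mRNA probe was well above background on all 3 DJB arrays in 101. Intervals of Iqsec3 (mRNA probe well above background on 2 DJB arrays), Lrrc4c and Npas3 rose relative to their host by 3.47 ± 0.35 (SE; adjusted p = 0.0176), 3.19 ± 0.26 (SE; adjusted p = 0.0101) and 2.85 ± 0.43 (SE; adjusted p = 0.0428). In Pnpla3, a lipid droplet acyl hydrolase, the mRNA probe read 1.66, 0.40 and 1.59 in Sham and -2.38, -3.14 and -2.08 in DJB. The interval at chr15:84172716-84186081 on the plus strand read 3.25, 2.90 and 3.48 in Sham and 2.77, 2.69 and 2.62 in DJB, all DJB values below all Sham values but far less so, and the relative difference was 3.23 ± 0.34 (SE; adjusted p = 0.0201). Pex5l held both patterns: chr3:33004304-33024800 fell at least 2.08-fold with its mRNA, and chr3:33004304-33015076, with the same downstream end, differed by -0.09 and rose relative to the mRNA by 3.05 ± 0.37 (SE; adjusted p = 0.0271).

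Several intervals of a host gene did so in Tnik, a kinase of the Wnt pathway, where 7 of 11 tested members rose relative to the mRNA. The mRNA probe differed by -1.37 ± 0.16 (SE; adjusted p = 0.0225). The Tnik interval chr3:28532888-28557117 read -0.44, -0.60 and -0.33 in Sham and -0.088, -0.18 and -0.47 in DJB, with overlapping groups, and rose relative to the mRNA by 1.58 ± 0.21 (SE; adjusted p = 0.0316). In Mylk, which encodes the myosin light chain kinase of smooth muscle, all 3 tested members did so. The mRNA probe differed by -1.91 ± 0.16 (SE; adjusted p = 0.0104), while chr16:34952779-34963846 read 0.021, -0.12 and 0.095 in Sham and -0.14, -0.041 and -0.16 in DJB and chr16:34894811-34922660 read -2.24, -2.65 and -2.47 in Sham and -2.76, -2.66 and -2.65 in DJB. The relative rises were 1.79 ± 0.14 (SE; adjusted p = 0.0097) and 1.68 ± 0.11 (SE; adjusted p = 0.00548). Smooth muscle markers were lower in 3 of 3, at a mean log2 level of 4.98 to 6.15 on the Sham and 3.03 to 3.14 on the DJB arrays, and their part in the difference of the mRNA was not tested. Itga8 (an integrin of smooth muscle and mesenchymal cells) had 4 of 9 and Cobl (an actin nucleator) 3 of 7 such intervals. In Whrn (whirlin, a scaffold protein), the interval chr4:63461282-63477637 read -0.63, -0.64 and -0.52 in Sham and 0.27, 0.30 and 0.29 in DJB, a difference of 0.88 ± 0.10 (SE; adjusted p = 0.0212), and was called with slide as a block too. The Whrn mRNA probe differed by -1.61 (adjusted p = 0.0661, not called), and the interval rose relative to it by 2.49 (adjusted p = 0.0454). The host genes named here, from Tnik on, were chosen after their values were seen.

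Only 7 members fell relative to their host mRNA. The interval of Rgs6 (a regulator of G protein signalling) at chr12:83047559-83067487 on the plus strand read -4.43, -3.81 and -4.53 in Sham and -7.12, -6.91 and -6.96 in DJB. It was well above background on 3 Sham and 0 DJB arrays, a fall of at least 1.42-fold, and the mRNA probe moved by 0.31 ± 0.12 (SE; adjusted p = 0.163). The fitted relative difference was -3.05 ± 0.15 (SE; adjusted p = 0.00243). Its size, SE and p-value rest partly on unmeasured DJB values and are not exact. For Nf2, which encodes the tumour suppressor merlin, the interval at chr11:4780578-4794917 on the minus strand read -2.61, -2.78 and -2.84 in Sham and -4.41, -4.42 and -3.91 in DJB and the mRNA probe read 5.63, 5.52 and 5.63 in Sham and 5.56, 5.60 and 5.71 in DJB. Interval groups did not overlap, the mRNA groups did, and the relative difference was -1.53 ± 0.14 (SE; adjusted p = 0.0156). An interval of Rora (a nuclear receptor) fell at least 2.17-fold, with a fitted relative difference of -1.52 ± 0.13 (SE; adjusted p = 0.0133). The Rora interval was also well above background on 3 Sham and 0 DJB arrays, so the same limit holds. Intervals of Pnpla7, Zfp385b and Kif5c fell by 1.36, 1.29 and 1.13 relative to their mRNA. Those of Zfp385b and Kif5c were well above background on 1 DJB array each, so their sizes are not exact.

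**Figure D5:**
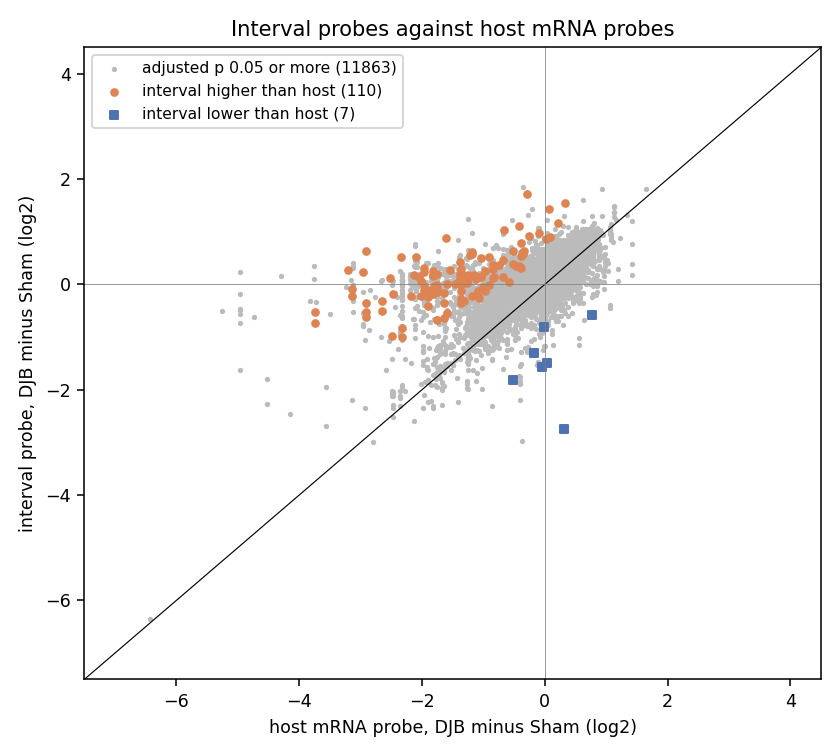
DJB minus Sham difference (log2) of each tested interval against that of its host mRNA probe, for 11980 members; the line marks equal change. The 110 intervals that rose relative to the host (orange) lie mostly at host differences below 0 and interval differences near 0; the 7 that fell (blue squares) lie below the line, at host differences from -0.52 to 0.77.

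Host genes were also grouped by function, in lists whose counts are read against 2.60% and 1.07% of all members. Of 30 tested intervals in genes of fatty acid and triglyceride synthesis, 2 rose and 2 fell (median difference 0.10). The falls were both in Acaca (acetyl-CoA carboxylase, which makes malonyl-CoA): chr11:84214158-84229026 read -2.19, -2.27 and -2.22 in Sham and -3.02, -2.95 and -2.76 in DJB, a difference of -0.68 ± 0.12 (SE; adjusted p = 0.0377), and chr11:84193079-84229026, with the same downstream end, differed by -0.67. The rises were both in Acsl4, an acyl-CoA synthetase that prefers arachidonic acid, at 0.60 and 0.58. Of 11 in lipid uptake, droplet and lipolysis genes, 1 fell (median -0.52): an interval of Vldlr, a receptor for triglyceride-rich lipoproteins, read 1.21, 1.12 and 1.45 in Sham and -0.20, -0.25 and 0.35 in DJB, a difference of -1.29 ± 0.20 (SE; adjusted p = 0.0321). Of 23 in fatty acid oxidation genes 0 were called by limma, with 3 higher and 1 lower at an unadjusted p under 0.05, and the smallest p was for Decr1 at -1.05 ± 0.22 (SE; adjusted p = 0.0525). The median of that list was -0.040 and was above 0 with median scaling, normexp, quantile normalization and the authors' values. Of 28 in adipocyte transcription factor and adipokine genes, 0 were called by limma (median 0.034), with 3 higher and 3 lower at an unadjusted p under 0.05, and the smallest p was for Samd4 at 0.43.

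Of 112 intervals in extracellular matrix, integrin and laminin genes, 3 rose and 1 fell, and 93 were above 0 (median 0.32). An interval of Fn1 (fibronectin) at chr1:71629666-71648146 read 1.79, 2.14 and 2.37 in Sham and 3.18, 3.05 and 3.12 in DJB, a difference of 1.02 ± 0.17 (SE; adjusted p = 0.0368). An interval of P4ha1, a subunit of collagen prolyl hydroxylase, rose by 0.61, and an interval of Nid2, a basement membrane nidogen, differed by -0.79. Of 30 in genes of macrophages and myeloid cells, 3 rose and 0 fell, and 27 were above 0 (median 0.40). They were 2 intervals of the transcription factor Runx1 (0.86 and 0.73) and 1 of the kinase Syk, which read -0.095, -0.04 and 0.11 in Sham and 0.90, 0.52 and 0.71 in DJB, a difference of 0.72 ± 0.14 (SE; adjusted p = 0.0457). Macrophage markers on mRNA probes had 2 of 6 higher (Itgam and Gpnmb), with a mean level of 6.63 to 7.08 on the Sham and 7.47 to 7.68 on the DJB arrays; their part in the interval rises was not tested. Of 19 intervals in endothelial genes, 0 were called by limma, with 0 higher and 7 lower at an unadjusted p under 0.05, and 2 were above 0 (median -0.45). Endothelial markers had 1 of 3 lower (Kdr), at a mean level of 5.15 to 5.33 on the Sham and 4.31 to 4.85 on the DJB arrays. The groups overlapped for Pecam1, and the part of these markers was not tested. By limma the 6 intervals in T, B and dendritic cell genes had 0 calls, with 1 higher and 1 lower at an unadjusted p under 0.05, and the 2 in mesothelial genes 0 calls, with 0 at an unadjusted p under 0.05.

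Of 44 intervals in skeletal and smooth muscle genes, 6 fell (Trdn and 5 of Dmd) and 1 rose (median -0.098, above 0 with median scaling and normexp). The rise was in Ttn (titin, the spring protein of the sarcomere): the interval chr2:76857904-76887006 read -1.51, -1.42 and -1.46 in Sham and -0.58, -0.68 and -0.78 in DJB, a difference of 0.78 ± 0.11 (SE; adjusted p = 0.0283), and it rose relative to its mRNA probe by 1.18 ± 0.15 (SE; adjusted p = 0.0316). All 3 DJB values were above the Sham values, opposite in direction to 4 of the 5 skeletal muscle markers. Of 34 intervals in Schwann cell and nerve genes, 0 were called by limma and 0 had an unadjusted p under 0.05 (median -0.088, above 0 with median scaling, normexp and quantile normalization). Chromatin and transcription regulators gave 1 rise and 0 falls in 173 (an interval of Smarca4, a chromatin remodelling ATPase, at 0.61). Ubiquitin ligases and deubiquitinases gave 4 rises and 0 falls in 192, in Cblb and Rnf13. The 344 tested intervals in genes known as hosts of circular RNAs had 9 rises (2.62%) and 1 fall (0.291%), with a median of 0.13. The rises were close to the 2.60% of all members, and the falls were below the 1.07%. The list of liver, gut, pancreas and epididymis genes held 0 members.

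The tested share was higher at a higher GC content of the probe, from 66.2% under 40% GC to 93.8% at 55% or more, while the median difference stayed between 0.13 and 0.16 in every GC bin. It was 0.13, 0.12, 0.16 and 0.13 for probes with 9, 10 to 19, 20 to 29 and 30 or more bases before the meeting point. By chromosome, the called rises were most frequent on chromosome 10 (50 of 835, 5.99%), where 23 were in Stxbp5, and on chromosome 1 (60 of 1289, 4.65%), where 18 were in Atp6v1h. The called falls were most frequent on chromosome 8 (8 of 172, 4.65%), where 4 were in Sorbs2.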

How the data were processed

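Total RNA of 6 adipose tissue samples, 3 after bypass (DJB) and 3 after sham surgery, was labelled with 1 dye and hybridised to Agilent arrays, per the labels' protocols. The authors deposited Feature Extraction output per array. Its processed intensity was background-subtracted and detrended by that software, per the file headers, and was not scaled between arrays. The local background, mean intensity and flag columns were also deposited. A log2 value table deposited by the authors served as an alternative; each column correlated best with its own array, and its scaling is not given in the sources used here. The submitters' processing notes name limma without a role.

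The log2 processed intensity less each array's 75th percentile over non-control probes was computed, outlier spots were left out, and probes well above background on at least 3 of 6 arrays were fitted with limma 3.58.1 (R 4.3.3) and Benjamini-Hochberg adjustment at 0.05. A fold for a probe that no array of a group measured is a lower bound, the mean of the measured group against the lowest well-measured signal or the probe's own, whichever is higher. The host mRNA probe was the tested RefSeq probe with the highest mean. Genes and strands came from RefSeq tables (GRCm38.p6). The procedure was tested on simulated data. Arrays carry no read depth, and their number limits the precision.

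The members, host gene lists and tests were chosen with earlier results of these data known. Text names the 10 largest called rises and falls with groups that do not overlap (1 per host gene), the 8 highest signals, the host genes with the most members or extreme medians, the called members of each list, and the largest fitted changes relative to the host; exceptions are stated. The 2 slides, scalings, filters, prior and single arrays were varied. The header's build field reads mm9; the series' design text concerns other samples and was set aside. Some results are not reported here.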

Additional observations from a re-analysis of the deposited data

How the results depend on the processing

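Of 103 calls on named intervals, 91 held with median scaling, 82 with normexp background correction, 96 with quantile normalization, 95 on the authors' deposited log2 values and 100 with a trended robust prior, but 13 with slide as a block and 8 with no detection filter. Called rises and falls numbered 313 and 64 with median scaling, 1215 and 152 with normexp, 400 and 94 with quantile normalization and 388 and 93 on the authors' values. They numbered 9 and 16 with no detection filter, which tests more probes, 606 and 199 among probes measured on all 6 arrays, 775 and 243 with the trended prior, and 11 and 14 with slide as a block. Leaving out 1 array gave 0 to 114 rises and 1 to 255 falls. The median difference was 0.25 with median scaling, 0.19 with quantile normalization and 0.18 on the authors' values. For intervals against their host, rises and falls were 1914 and 44 with normexp, 229 and 7 with quantile normalization, 231 and 8 on the authors' values, 198 and 8 on all 6 arrays, 67 and 6 with slide as a block and 26 and 2 with the mean of the host probes. Leaving out 1 array gave 3 to 273 and 1 to 29. With normexp, 18 of 463 called members changed sign, and among the named intervals 1 of Arhgap32 reversed, to 0.024 (adjusted p = 0.800). The labels number replicates alike in both groups and do not state a pairing. Deviations of same-numbered arrays correlated at -0.18, -0.12 and -0.29, which shows no pairing. With 3 arrays per group on 2 slides, these values cannot exclude it. A replicate block gave 0 rises and 0 falls (1689 and 778 at an unadjusted p under 0.05), and 5 and 1 against the host. The cause of these shifts was not tested. Members under background on all arrays (1807) have no measured difference.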
